A study of Mus musculus with 18 samples.

Results

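The comparison described here sets 3 RNA-seq libraries of mesenchymal stem cells (MSC) treated with CK666 against 3 libraries of untreated control cells, which makes 6 of the 18 libraries in the series. The members were taken from the treatment and replicate number in the labels, and all genes were examined. The cells were grown from the marrow of male C57BL/6J mice and were not transfected. The study gives its expression results for about a day after the drugs were added, and neither the labels nor the methods tie a library to an animal, so p-values measure the spread between these samples, which may be technical. Both groups shared strain, sex and cell source and carried no engineered allele. A group given cytochalasin D (CytoD), a drug that caps actin filaments, was fitted alongside. Cells transfected with an siRNA against the nuclear actin-related protein Arp4, with or without CK666 (siArp4+CK666 and siArp4), served as a second set of libraries, and cells given a control siRNA without CK666 (siControl) entered the same fits. Each of these groups had 3 libraries.

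The Arp2/3 complex is an assembly of actin-related and accessory proteins. It binds the side of an existing actin filament and starts a new filament there, which gives branched networks at the cell edge and in the nucleus. CK666 is a small molecule that holds the complex in its inactive form. Marrow MSC are adherent stromal cells that can become fat, bone or cartilage cells, and actin tension in these cells is known to act on transcription through the cofactors MRTF and YAP. Cells also carry stress programs that sense amino acid shortage, misfolded protein or oxidants. The integrated stress response is one of them: it slows translation and raises the transcription factor ATF4, which switches on genes for amino acid supply.

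Short promoter stretches of genes that the results turn on are shown first, because each holds a motif by which such a program is known to be read. They are RefSeq sequences of the GRCm38.p6 build, printed on the strand of the gene from 5′ to 3′, and lie upstream of the start that RefSeq gives. For Atf3 and Cdc6 the GENCODE gene begins farther upstream, so their stretches lie inside it. The capitals mark the motif. The first set holds the CARE motif (TGATGNAAN on either strand), the element that ATF4 and its partners bind. It is shown for Atf3 (chr1:191183421-191183459, minus strand), Chac1 (chr2:119351033-119351071, plus strand) and Slc7a11 (chr3:50443656-50443694, minus strand), which all rose with CK666.
Atf3: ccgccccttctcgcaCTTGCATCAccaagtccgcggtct
Chac1: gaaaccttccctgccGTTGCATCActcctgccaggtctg
Slc7a11: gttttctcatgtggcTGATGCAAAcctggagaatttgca

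The second set covers antioxidant, glucose and sterol genes. The antioxidant response element (TGACNNNGC) is shown for Gsta3 (chr1:21240449-21240487, plus strand) and Mt2 (chr8:94172524-94172562, plus strand). The carbohydrate response element is shown for Txnip (chr3:96557857-96557903, plus strand), and the sterol regulatory element (TCACNCCAC) for Hmgcs1 (chr13:119690199-119690237, plus strand).
Gsta3: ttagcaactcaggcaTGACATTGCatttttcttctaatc
Mt2: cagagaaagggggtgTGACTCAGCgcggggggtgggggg
Txnip: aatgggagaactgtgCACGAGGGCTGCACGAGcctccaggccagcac
Hmgcs1: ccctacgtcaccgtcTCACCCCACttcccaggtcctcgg

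The third set covers genes that fell. The E2F motif (TTTCCCGC or TTTGGCGC) is shown for the replication genes Mcm5 (chr8:75109345-75109382, plus strand) and Cdc6 (chr11:98907998-98908035, plus strand). The CArG box read by SRF with MRTF is shown for Vcl (chr14:20929156-20929195, plus strand), and the TEAD motif GGAATG, read with YAP, for Ccn1 (chr3:145650068-145650103, minus strand).
Mcm5: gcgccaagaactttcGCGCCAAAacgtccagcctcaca
Cdc6: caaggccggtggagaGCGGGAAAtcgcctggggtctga
Vcl: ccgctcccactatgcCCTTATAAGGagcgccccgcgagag
Ccn1: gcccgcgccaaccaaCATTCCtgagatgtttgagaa

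Over the 250 bases upstream of the start, 10476 tested genes had a promoter sequence, and both strands were searched. CARE was held by 247 of them (2.36%), by 32 of 529 genes called higher (6.05%) and by 15 of 628 genes called lower (2.39%). Among the fixed lists it was held by 4 of 17 stress response regulators and 3 of 13 amino acid synthesis genes. The E2F motif was held by 293 genes (2.80%), by 8 genes called higher (1.51%) and 33 genes called lower (5.25%), by 6 of 29 DNA replication genes and by 0 of 25 mitosis genes. The CArG box was held by 152 genes (1.45%), by 0.945% of genes called higher and 3.66% of those called lower, and by 8 of 22 actin and contractile genes. GGAATG was held by 1342 genes (12.8%), by 10.02% of genes called higher and 14.3% of those called lower, and by 8 of 10 YAP and TAZ targets. The antioxidant element was held by 1455 genes (13.9%), by 16.3% of genes called higher and 14.97% of those called lower, and by 5 of 12 NRF2 and metallothionein genes. The sterol element was held by 128 genes (1.22%), by 0.567% of genes called higher and 1.11% of those called lower, and by 1 of 16 sterol genes. The carbohydrate element was held by 66 genes (0.630%), by 0.756% of genes called higher and 0.637% of those called lower. These shares describe letters in a window and no binding was measured.

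Depth was similar across the 6 libraries. Totals ran from 19330887 to 21448992 estimated counts, and between 12563 and 12840 genes reached a count of 10. Mitochondrial genes took 1.43% to 1.82% of counts in control and 1.36% to 1.88% in CK666. CK666 replicate 1 stood apart by transcript length. Where normalized counts averaged 100 or more, the 1074 genes with transcripts shorter than 1500 bases lay a median of 0.39 log2 above the CK666 mean in this library, and the 2492 genes with transcripts over 5000 bases lay 0.30 below it (log2 -0.30). The gap between short and long genes was 0.69 log2 in this library and between -0.07 and 0.10 in the control libraries. In CK666 replicates 2 and 3 the gap was -0.48 and -0.19, which must oppose the first because each library is measured from the mean of its own group. The part of transcript length in the results was not tested.

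The label was checked against stromal markers, which were detected apart from Thy1. Thy1 had no counts in any of the 6 libraries, and a 0 permits as many as 3 counts per library. The summed normalized counts of the detected MSC markers were 57004 to 59690 in control and 31502 to 37359 in CK666. Most of that sum was Cxcl12, the marrow niche chemokine. Haematopoietic markers summed to 224 to 290 in control and 182 to 251 in CK666, and the macrophage and leukocyte gene Ptprc was at 0. Endothelial markers summed to at most 13.8. Muscle markers summed to 760 to 844 in control and 1042 to 1355 in CK666, nearly all from Des. In bulk RNA, fewer cells of a type and less RNA per cell cannot be told apart.

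CK666 changed many genes in both directions. Of 14597 genes tested, 714 were called higher (4.89%) and 885 were called lower (6.06%), at an absolute log2 fold change over 1 and a DESeq2 adjusted p below 0.01. Of the genes called higher, 196 rose by more than 2 on the log2 scale and 55 by more than 4, and of those called lower, 213 fell by more than 2 and 39 by more than 4. Protein-coding genes made up 653 and 796 of them. The 3 CK666 libraries did not overlap the 3 control libraries in 709 of the 714 and 879 of the 885, against 47.5% of all tested genes. Without CK666 replicate 1 the counts were 635 and 798. For CK666 against control, counts of called members in the lists below stand against these shares of all tested genes, 4.89% higher and 6.06% lower. The plot of change against level places the genes named below among all tested genes.

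**Figure D1:**
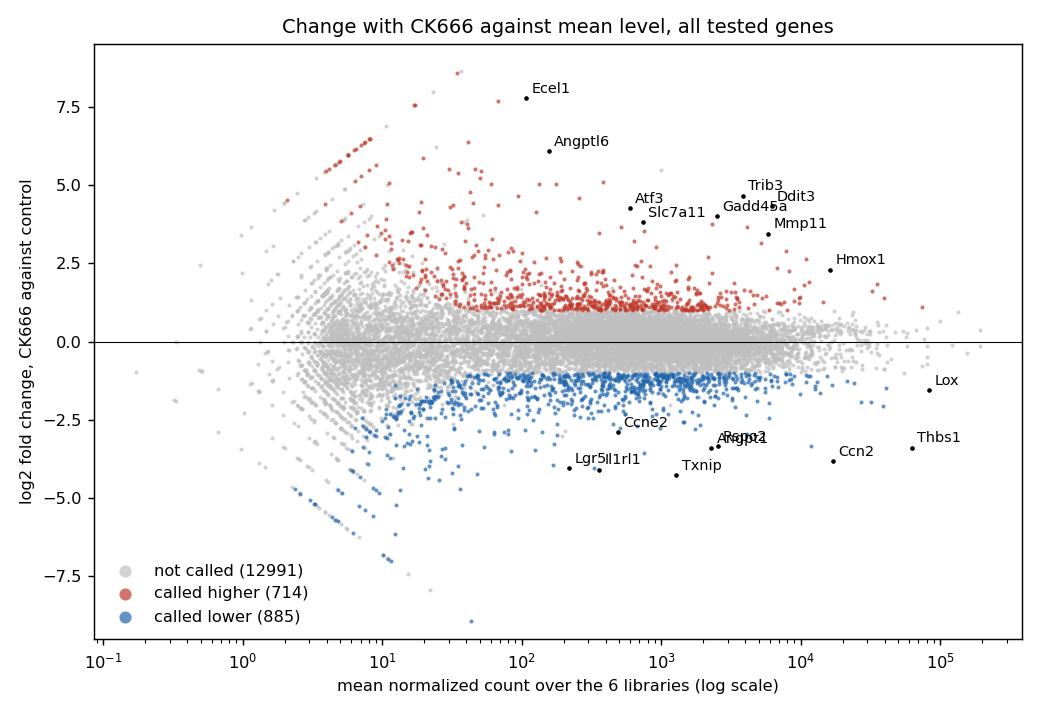
Mean normalized count over the 6 libraries (horizontal, log scale) against the log2 fold change of CK666 over control (vertical) for 14590 tested genes with a count in these libraries, of which 2 lie outside the vertical limits of ±9.5. Red points are the 714 genes called higher and blue points the 885 called lower, and named genes are marked, with Ccn2, Thbs1 and Lox among the most abundant falls.

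**Figure D2:**
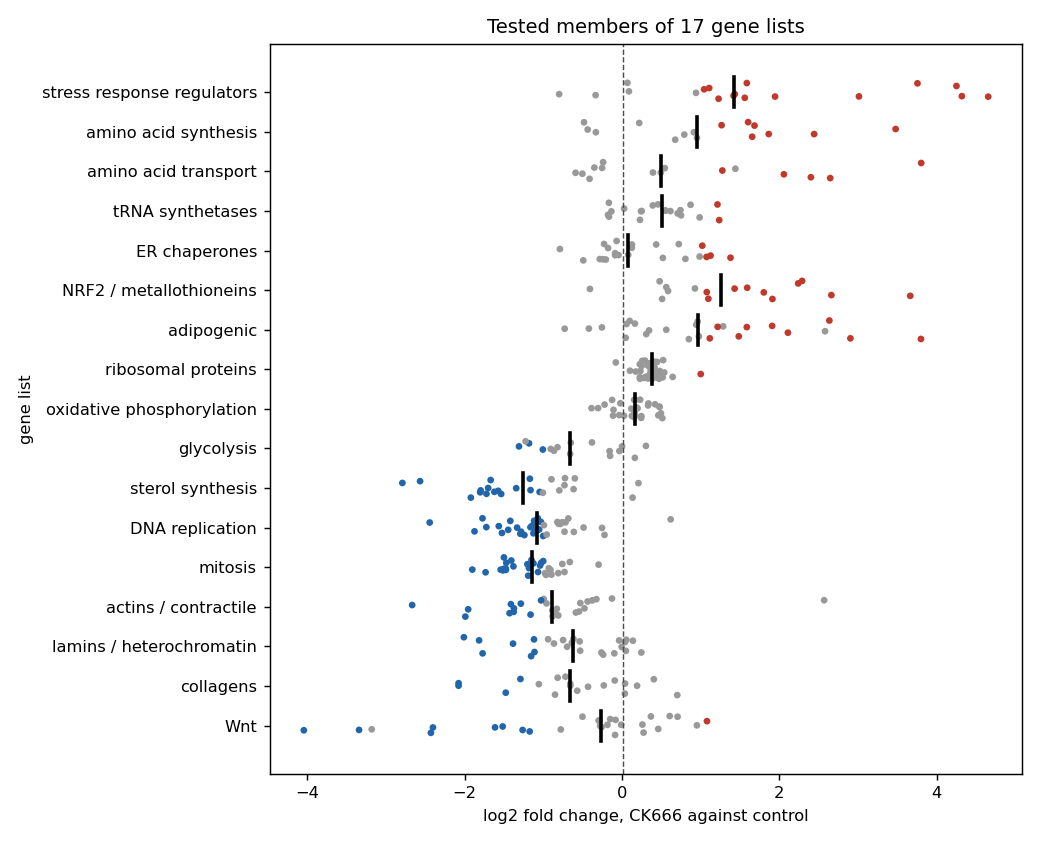
Log2 fold change (horizontal) of each tested member of 17 gene lists (vertical), with red for members called higher, blue for members called lower and gray for the rest. Black bars are list medians and the dashed line is the median of all tested genes (0.01), and sterol, replication and mitosis lists lie left of it while stress regulators and NRF2 genes lie right.

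RNA of the complex that CK666 targets changed at few subunits. Of 10 Arp2/3 subunit genes tested, 1 was called higher and 1 lower, and their median log2 fold change was -0.18 against 0.01 for all tested genes. Actr3, which encodes the Arp3 subunit, was at 12965, 11873 and 12528 normalized counts in control and 13068, 12325 and 12108 in CK666. The groups overlapped (adjusted p 0.969), and the log2 fold change was 0.01 with an SE of 0.08. Actr2, the Arp2 subunit, was at 6035, 5884 and 5908 in control and 4609, 4822 and 4688 in CK666, a fall by 0.34 on the log2 scale that passed the p threshold but not the fold minimum. The Arp3 paralogue Actr3b was a low gene at 29.0, 26.3 and 40.4 in control and 10.8, 7.14 and 3.72 in CK666, and it fell by 2.15. The alternative subunit Arpc5l was at 990.5, 1040 and 974.9 in control and 2683, 1666 and 1667 in CK666. Its log2 fold change of 1.001 only just passed the minimum and was not called without CK666 replicate 1 (0.74), without control replicate 1 or 3, or in the fit with replicate number as a block (0.98), and it shares 62 exon bases with Rpl35 on the other strand, which is far more abundant.

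Actin and contractile genes were lower where they were called. Of 26 actin and contractile genes tested, 10 were called lower and 0 higher, with a median log2 fold change of -0.88. Actb, the main cytoplasmic actin, was at 77359, 69972 and 73725 in control and 40023, 34174 and 36690 in CK666, and its log2 fold change of -0.995 was just short of the fold minimum, though it was called without CK666 replicate 1 or control replicate 2. Actg1, the other cytoplasmic actin, was 94107 ± 6635 (SD, n = 3) in control and 67589 ± 5622 in CK666. Vcl, which encodes vinculin, a link between adhesions and actin, was at 8958, 10023 and 9458 in control and 1757, 2850 and 2723 in CK666. Every CK666 library was far below every control library, a fall by 1.96 (SE 0.17, adjusted p 2.43e-30). Ap3m1 overlaps 2090 exon bases of Vcl on the other strand at a mean count of 3290, and the libraries did not record strand. Acta2, the smooth muscle actin, was at 37018, 34536 and 36037 in control and 23386, 16680 and 18284 in CK666, with a log2 fold change of -0.88 that was called without CK666 replicate 1. Ilk, integrin-linked kinase, fell by 1.18, though it shares 2106 exon bases with Taf10 on the other strand.

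The strongest fall of this kind was in Ccn2, a matricellular protein gene that is a standard target of YAP and TEAD. It was at 32102, 30303 and 32718 normalized counts in control and 2475, 2030 and 2272 in CK666, a fall by 3.81 (SE 0.10). Ccn1, its close relative, was at 8654, 8231 and 8958 in control and 4059, 3196 and 3526 in CK666, and it fell by 1.26. Of 13 YAP and TAZ pathway genes tested, 5 were called lower and 0 higher, with a median of -0.36. Crim1, another target, fell by 1.29 and overlaps Fez2 on the other strand. Coro1c, an actin-binding regulator of Arp2/3, was the 1 called gene among 16 Arp2/3 regulators tested, at 5569, 5130 and 5433 in control and 2167, 2271 and 2395 in CK666.

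The integrated stress response was the clearest group to rise. Of 18 regulators tested, 13 were called higher and 0 lower, against 4.89% of all tested genes called higher, and the list median was 1.43. Atf4 was already abundant and went from 5401, 5217 and 5336 normalized counts in control to 18223, 11570 and 13308 in CK666, an increase of 1.43 (SE 0.16, adjusted p 9.80e-19). Ddit3, which encodes the CHOP factor downstream of ATF4, was at 578.4, 619.3 and 574.4 in control and 16132, 8798 and 10508 in CK666. The log2 increase was 4.32 (SE 0.20, adjusted p 4.60e-105). Trib3, a pseudokinase that feeds back on ATF4 and CHOP, has its gene (ENSMUSG00000032715.9) at chr2:152337422-152344032 of GRCm38, minus strand. It was at 267.0, 303.8 and 313.6 in control and 8849, 6367 and 7086 in CK666, a rise of 4.66 (SE 0.17, adjusted p 2.35e-169). In all 3 genes the lowest CK666 library was above the highest control library, and CK666 replicate 1 was the highest. All 3 were still called without it.

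Atf3 and Chac1, whose CARE elements are printed above, followed the same pattern. Atf3, an ATF4-induced factor, was at 66.7, 56.5 and 54.8 in control and 1204, 1108 and 1084 in CK666, and rose by 4.25 (SE 0.23, adjusted p 1.66e-72). Chac1, which degrades glutathione, was at 223.4, 210.3 and 170.8 in control and 1821, 1512 and 1550 in CK666, and rose by 3.01 (SE 0.16, adjusted p 1.24e-78). The 3 CK666 values of Atf3 were close together, so this rise did not rest on CK666 replicate 1. Gadd45a, a growth arrest and DNA damage gene, went from 316.3, 279.5 and 282.5 to 6158, 3618 and 4371, a rise of 4.01. Gdf15, a secreted stress hormone, rose by 2.88, from 1840, 1913 and 1889 to 20138, 9793 and 11473. Fgf21, another stress hormone, was at 0 in all 3 control libraries and at 15.7, 20.4 and 9.30 in CK666, and its call was lost in edgeR and without CK666 replicate 1, CK666 replicate 2 or control replicate 1.

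**Figure D3:**
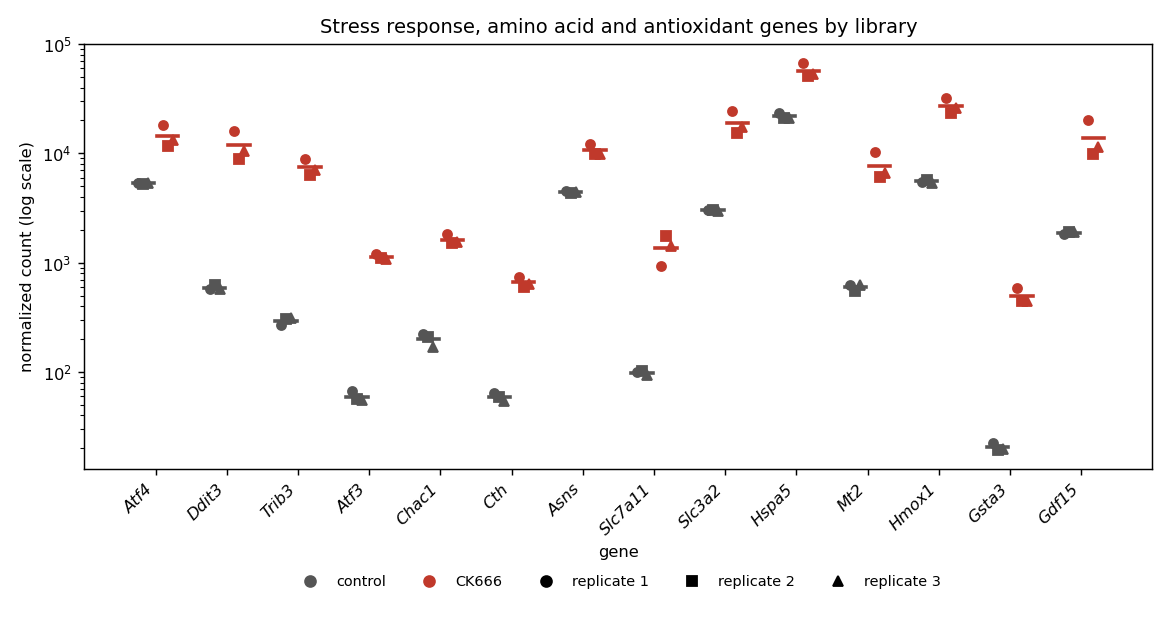
Normalized counts (vertical, log scale) of 14 genes of the stress, amino acid and antioxidant groups (horizontal) in each control (gray) and CK666 (red) library, with a symbol per replicate number and bars at group means. In every gene shown all 3 CK666 points lie above all 3 control points, and the circle of CK666 replicate 1 is the top CK666 point in most but is the lowest for Slc7a11 (930.4).

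Part of the genes that supply amino acids rose with the regulators. Of 15 enzymes of serine, glycine, asparagine, proline and cysteine synthesis tested, 7 were called higher and 0 lower, with a median of 0.95. With no fold minimum, 11 were higher and 2 lower. Cth, which makes cysteine from cystathionine, was at 64.8, 58.4 and 53.8 in control and 744.7, 600.4 and 631.4 in CK666, a rise of 3.48 (SE 0.19, adjusted p 6.98e-69). Asns, asparagine synthetase, was at 4540, 4309 and 4471 in control and 12129, 9969 and 9946 in CK666, a rise of 1.27. Mthfd2, a mitochondrial folate enzyme, rose by 1.87 and Gpt2, a mitochondrial alanine aminotransferase, by 2.44. The enzymes of the serine pathway differed: Phgdh, which starts it, had a log2 fold change of 0.79 (adjusted p 1.33e-06) and Psat1 one of 0.22 (adjusted p 0.0482), neither called. Psph, the last enzyme, named here after its values were seen, was called with a rise of 1.68.

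Amino acid transporters split within their list. Of 15 tested, 5 were called higher and 0 lower, with a median of 0.49. Slc7a11, the cystine importer, was at 100.6, 101.3 and 93.1 in control and 930.4, 1760 and 1431 in CK666, a rise of 3.80 (SE 0.25, adjusted p 2.52e-50). Slc3a2, the heavy chain that partners it, was at 3060, 3057 and 2986 in control and 24437, 15195 and 17404 in CK666, and rose by 2.65. The glycine transporter Slc6a9 rose by 2.40. The leucine carrier Slc7a5, which shares the same heavy chain, was not called, at 0.54 on the log2 scale. Of 20 cytosolic tRNA synthetases tested, Sars (1.24) and Wars (1.21) were called higher and 0 lower, with a median of 0.50.

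Endoplasmic reticulum (ER) genes moved both ways, with 12 log2 fold changes above 0 and 11 below. Of 23 chaperone, ER-associated degradation and sensor genes tested, 4 were called higher and 0 lower, and the median was 0.08. Of all tested genes, 4.89% were called higher. The main ER chaperone Hspa5 was the largest of these in level, at 23560, 21148 and 20944 in control and 66663, 51195 and 52959 in CK666, a rise of 1.38 (SE 0.12, adjusted p 1.17e-28). Derl1, which moves misfolded proteins out of the ER, rose by 1.08, and the sensor kinase gene Ern1 by 1.13. Ern1 lost its call without CK666 replicate 2. Xbp1, the factor downstream of Ern1, had a log2 fold change of -0.18 (adjusted p 0.185). Cytosolic heat shock genes differed from this: of 15 tested, 3 were called lower and 0 higher, and Hspa1b was at 843.5, 842.3 and 783.4 in control and 328.1, 240.6 and 257.6 in CK666. Hspa1a and Hspa1b are near-identical copies between which reads may be split, and Hspa1a lost its call without CK666 replicate 2. The call of Hspb1, the third, was lost in edgeR, under the replicate block (log2 fold change -1.29) and without CK666 replicate 2 or any 1 control library.

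Antioxidant genes rose broadly. Of 16 NRF2 targets, ferritins and metallothioneins tested, 10 were called higher and 0 lower, with a median of 1.26. Mt2, a metal-binding metallothionein, was at 625.8, 552.1 and 631.3 in control and 10276, 6106 and 6569 in CK666, a rise of 3.67 (SE 0.19, adjusted p 7.66e-84). Hmox1, which breaks down heme, was at 5495, 5706 and 5400 in control and 32054, 23286 and 25854 in CK666, a rise of 2.29 (SE 0.13, adjusted p 2.72e-72). Gsta4, which detoxifies lipid peroxides, rose by 2.66. Gsta3, outside the list, was at 22.2, 19.5 and 19.7 in control and 588.5, 445.5 and 449.2 in CK666. Sqstm1, an autophagy receptor that also frees NRF2, was at 15984, 15385 and 14902 in control and 66692, 49288 and 49324 in CK666, a rise of 1.84. It was 1 of 3 genes called higher, with 0 lower, among 25 lysosome and autophagy genes tested, and Rragd, a nutrient-sensing GTPase, rose by 1.96. The third, the lysosomal hexosaminidase gene Hexa (1.05), lost its call without CK666 replicate 1. The ferritin light chain gene Ftl1 had a log2 fold change of 0.93 and was called only without CK666 replicate 2 or 3, and ferritin genes have many near-identical copies.

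Txnip, which restrains glucose uptake and thioredoxin, had the largest fall of any gene the naming rule took. Its gene (ENSMUSG00000038393.14) spans chr3:96557957-96561883 of GRCm38, plus strand. It was at 2535, 2421 and 2395 normalized counts in control and 116.9, 126.4 and 139.5 in CK666, a fall by 4.26 (SE 0.11). No other member of the 7 arrestin and glucose-sensing genes tested was called. Among 16 glucose uptake and glycolysis genes, 3 were called lower and 0 higher, with a median of -0.66. Ldha, lactate dehydrogenase, was at 36340, 32856 and 33358 in control and 16003, 12725 and 12639 in CK666, a fall by 1.31. The glucose transporter Slc2a1 was 1786 ± 84.8 (SD, n = 3) in control and 1787 ± 17.9 in CK666. Bnip3, a hypoxia-inducible mitophagy gene, fell by 1.25, while Ndrg1, another hypoxia gene, rose by 1.44.

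Sterol genes fell together. Of 24 tested, 15 were called lower and 0 higher, against 6.06% of all tested genes called lower, and the median was -1.26. Idi1, an isomerase of the mevalonate pathway, was at 3534, 3027 and 2544 in control and 428.3, 474.0 and 412.0 in CK666, a fall by 2.79 (SE 0.14, adjusted p 1.30e-90). Stard4, a cholesterol carrier, fell by 2.57. Hmgcs1, whose sterol element is printed above, was at 3186, 3456 and 3228 in control and 1087, 1033 and 1084 in CK666, a fall by 1.62 (SE 0.08, adjusted p 5.28e-83). Srebf2, the factor that drives these genes, had a log2 fold change of -0.73 (adjusted p 9.28e-15) and was under the fold minimum. Without CK666 replicate 1 the list gave 15 of 23 called lower. Fatty acid synthesis moved less: of 11 genes tested, the desaturase Scd2 (log2 fold change -1.64) and the elongase Elovl6 (-1.44) were called lower and 0 higher.

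Cell cycle genes fell across replication and mitosis. Of 37 DNA replication genes tested, 23 were called lower and 0 higher (median -1.07), and of 30 mitosis genes 20 were called lower and 0 higher (median -1.14). Mcm4, part of the replicative helicase, was at 5088, 4958 and 5062 in control and 1335, 1368 and 1414 in CK666, a fall by 1.88 (SE 0.07, adjusted p 2.79e-146). Cdc6, which loads that helicase, was at 506.9, 463.5 and 551.6 in control and 97.3, 95.8 and 86.5 in CK666, a fall by 2.45. Mki67, the proliferation marker Ki-67, was at 6550, 8555 and 7880 in control and 1326, 2601 and 2215 in CK666, a fall by 1.90 (SE 0.21, adjusted p 4.88e-18).

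Among 22 G1 regulators, 8 were called lower and 0 higher, with a median of -0.63. The E-type cyclin Ccne2 was at 917.0, 807.3 and 861.0 in control and 123.8, 113.2 and 111.6 in CK666, a fall by 2.89 (SE 0.15, adjusted p 4.45e-80), and it shares 609 exon bases with Ints8 on the other strand. The repressor E2f7 was at 950.9, 856.9 and 843.4 in control and 97.3, 146.8 and 146.9 in CK666. The D-type cyclin Ccnd1 had a log2 fold change of -0.51, and the inhibitor Cdkn1a was 4970 ± 88.8 (SD, n = 3) in control and 5323 ± 182.2 in CK666 (adjusted p 0.290). Of 20 p53 targets, 3 were called higher and 0 lower, among them Pmaip1 (1.28), a pro-apoptotic BH3 protein, and Rrm2b (1.22), a ribonucleotide reductase subunit. The remaining gene, Trp53inp1, lost its call under the replicate block.

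Nuclear structure and chromatin genes showed the same direction. Of 25 lamin, LINC complex and heterochromatin genes tested, 7 were called lower and 0 higher, with a median of -0.62. Of all tested genes, 6.06% were called lower. Dnmt1, the maintenance DNA methyltransferase, was at 3561, 3909 and 3962 in control and 740.8, 1026 and 1070 in CK666, a fall by 2.01 (SE 0.14, adjusted p 4.64e-43). Its partner Uhrf1 fell by 1.82 and the B-type lamin gene Lmnb1 by 1.77. Lmna, which encodes lamin A/C, was at 21678, 20994 and 20886 in control and 17014, 12500 and 14248 in CK666, with a log2 fold change of -0.54, under the fold minimum. Dnmt1, Uhrf1 and Lmnb1 are also expressed with the cell cycle.

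**Figure D4:**
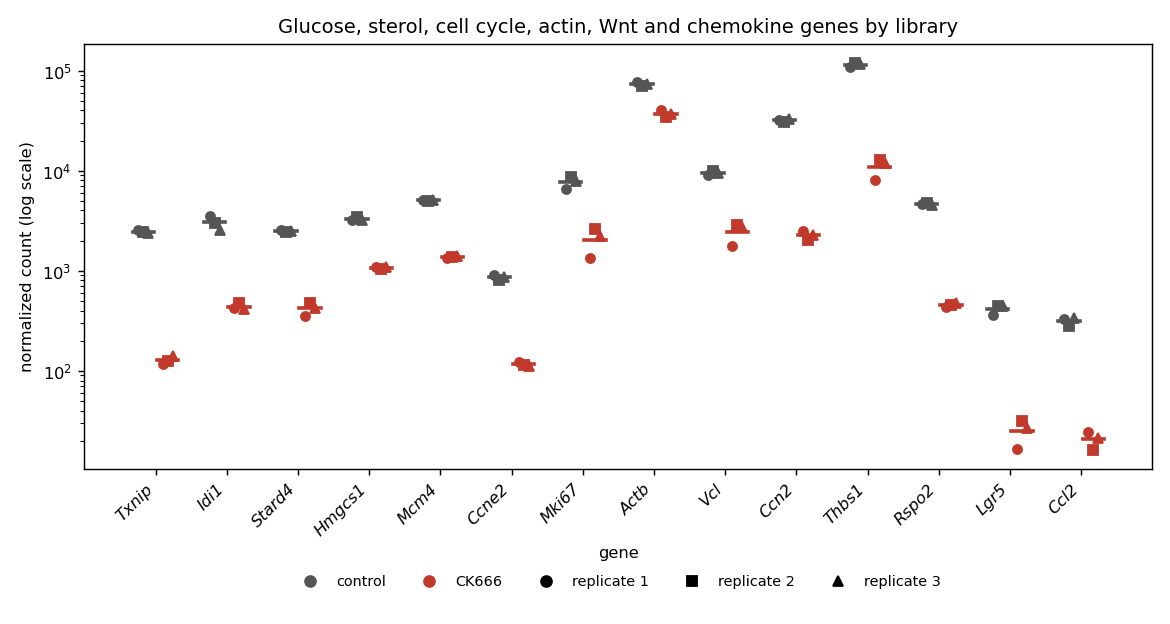
Normalized counts (vertical, log scale) of 14 genes of the glucose, sterol, cell cycle, actin, Wnt and chemokine groups (horizontal) in each control (gray) and CK666 (red) library, with a symbol per replicate number and bars at group means. All 3 CK666 points lie below all 3 control points in every gene, by the widest step for Txnip, Lgr5, Ccl2 and Ccn2.

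The matrix changed unevenly. Thbs1, the matricellular protein thrombospondin 1, was one of the most abundant genes that fell, from 107600, 118206 and 117621 normalized counts in control to 8057, 12694 and 12009 in CK666, a fall by 3.39 (SE 0.16, adjusted p 2.33e-101). Lox, which crosslinks collagen, went from 126990, 123189 and 122887 to 36539, 45785 and 44485, a fall by 1.56. Of 19 collagen chains tested, 4 were called lower and 0 higher (median -0.66), including Col3a1 (-2.08) and Col1a1 (-1.48). Fn1, fibronectin, was at 114939, 135439 and 125700 in control and 88716, 140517 and 120435 in CK666, and the groups overlapped. The stromelysin Mmp11 rose, from 856.1, 1104 and 1010 to 11301, 10436 and 10584, an increase of 3.44 (SE 0.11, adjusted p 2.10e-197), and the collagenase Mmp13 rose by 2.24. Of 20 matrix proteases and inhibitors tested, 3 were called higher and 1 lower. Among the 3 was Adamts15, at 0 in every control library and 2.95, 14.3 and 6.51 in CK666. It was not called in edgeR, under the replicate block or when any 1 control or CK666 library was left out.

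Signals between stromal and blood cells were called in both directions. The chemokine Ccl2, which draws monocytes, was at 327.9, 283.4 and 337.4 in control and 24.6, 16.3 and 21.4 in CK666, a fall by 3.93 (SE 0.25, adjusted p 1.67e-53), and Ccl7 fell by 2.69. Cxcl12 was at 34247, 35896 and 33409 in control and 19507, 20851 and 21312 in CK666, with a log2 fold change of -0.75. Of 9 chemokines tested, 1 was called higher and 3 lower, and 0 were higher without CK666 replicate 1 or 3, without control replicate 1 or 2, or in edgeR. The interleukin 33 receptor gene Il1rl1 was at 730.3, 596.0 and 703.7 in control and 32.4, 45.9 and 40.9 in CK666, a fall by 4.09 (SE 0.30, adjusted p 2.76e-41). The interleukin 1 antagonist Il1rn fell by 3.57 and the interleukin 6 receptor Il6ra by 2.28. They were the 3 called lower of 15 cytokine genes tested (median -0.11). Another 2, named after their values were seen, were called higher, the prostaglandin enzyme gene Ptgs2 (1.10) and the cytokine Lif (1.87), whose call was lost in edgeR and without CK666 replicate 2 or control replicate 2 or 3. Angpt1, a ligand for the endothelial receptor Tie2, was at 4112, 4337 and 4143 in control and 290.8, 415.9 and 478.9 in CK666, a fall by 3.41. Interferon-stimulated genes gave 2 called higher and 0 lower of 22, against 4.89% of all tested genes called higher. Without CK666 replicate 1 they gave 0 and 0.

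Some Wnt pathway genes fell, secreted factors and receptors among them. Of 28 tested, 1 was called higher and 8 lower, with a median of -0.27, and the rise was not called without CK666 replicate 1 or 3, without control replicate 1 or 3, or in edgeR. Rspo2, a ligand that amplifies Wnt signals, was at 4600, 4707 and 4581 in control and 434.2, 453.6 and 479.8 in CK666, a fall by 3.34 (SE 0.08). Its receptor Lgr5 was at 358.9, 443.1 and 439.8 in control and 16.7, 31.6 and 27.0 in CK666, a fall by 4.05 (SE 0.23, adjusted p 1.46e-64). The Wnt-binding antagonists Sfrp2 (log2 fold change -2.43) and Sfrp1 (-1.52) were also called lower, so ligand, receptor and antagonists moved the same way. Of 24 TGF-beta and BMP genes, 3 were called lower and 0 higher, against 6.06% of all tested genes called lower. They included the ligands Tgfb3 (-1.34) and Tgfb2 (-1.13). Tgfb2 lost its call without CK666 replicate 1, and without CK666 replicate 2 the list gave 5 called lower. Among immediate early factors, Klf2 (-2.07), Egr2 (-1.72) and Jun (-1.67) were 3 of 6 called lower of 22 tested, with 1 higher.

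The lineage genes named here that were called higher were of low level. Of 25 adipogenic genes tested, 9 were called higher and 0 lower (median 0.96). The study displayed markers of this kind for these same samples, so the count is not independent evidence of direction. Klf15, a fat cell transcription factor, was at 9.67, 0.974 and 4.14 in control and 75.6, 75.4 and 55.8 in CK666. Plin1, which coats lipid droplets, was at 24.2, 18.5 and 9.31 in control and 111.0, 131.5 and 82.8 in CK666. The abundant members moved less: the master regulator Pparg had a log2 fold change of 0.34 (adjusted p 7.10e-04), and the lipase Lpl one of 0.85. Of 17 osteogenic genes, 4 were called higher and 1 lower (median -0.15), and edgeR lost the lower call, as did the fits that left out replicate 2 or 3 of either group. Bglap2, an osteocalcin gene, was at 3.87, 5.84 and 20.7 in control and 108.1, 76.5 and 68.8 in CK666, a rise of 3.07 (SE 0.50, adjusted p 8.14e-09), though it has near-identical copies between which reads may be split. The regulator Runx2 was at 1174, 1517 and 1457 in control and 636.6, 1351 and 1183 in CK666, where the groups overlapped. Spp1, osteopontin, had a log2 fold change of -0.15 (adjusted p 0.247).

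Some large gene classes gave few calls. Of 45 cytosolic ribosomal protein genes tested, 1 was called higher, Rpl12, and 0 lower. Rpl12 was not called without CK666 replicate 1, without control replicate 2 or 3, or when any 1 CytoD library was left out. The replicate block, the count filter and the 6 libraries alone also ended its call. Of 30 nuclear genes for oxidative phosphorylation and 20 for Myc and ribosome biogenesis, 0 were called either way by DESeq2. edgeR also called 0 in both classes. At an unadjusted p below 0.05, DESeq2 gave 6 higher and 2 lower for oxidative phosphorylation and 6 higher and 3 lower for Myc and ribosome biogenesis. The ribosomal list had a median of 0.38 with all libraries and 0.09 without CK666 replicate 1, and its members are short transcripts. Myc itself was at 1356, 1284 and 1452 in control and 2420, 2062 and 2085 in CK666, a log2 fold change of 0.68. Circadian genes were mixed, with 2 of 17 called higher and 3 lower, among them Per2 (-1.73) and Per1 (-1.29) lower and Nfil3 (1.28) higher.

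Other large rises were in genes that were nearly silent in control. Ecel1, a membrane metallopeptidase, was at 1.93, 0 and 1.03 in control and 114.0, 89.7 and 442.6 in CK666, so its fold rests on very few control counts. Avil, an actin-bundling protein of the villin family, was at 9.67, 6.82 and 7.24 in control and 242.7, 255.9 and 279.9 in CK666, a rise of 5.03 (SE 0.37, adjusted p 7.89e-41), and it shares 165 exon bases with Tsfm on the other strand.

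CytoD also disturbs actin, and it shares the control libraries, so the drugs were compared directly. The test of CK666 against CytoD called 1778 of 15038 genes (11.8%), 764 higher with CK666 (5.08%) and 1014 lower (6.74%). Both tests use the same CK666 libraries. Calls made up a larger share than this in the lists for stress, amino acid supply, ribosome biogenesis and sterols, though most calls lay outside them. Of the 18 stress response regulators, 12 were higher with CK666 than with CytoD and 0 lower, with a median difference of 1.84, and Trib3 differed by 6.70 on the log2 scale. Of 15 amino acid synthesis genes 12 were higher (median 2.22), of 20 tRNA synthetases 15 (median 1.52) and of 20 Myc and ribosome biogenesis genes 13 (median 1.18), with 0 lower in each. Of the 24 sterol genes, 19 were lower with CK666 than with CytoD. Txnip differed by -5.28 and Rspo2 by -3.38.

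Few replication and mitosis genes passed the fold minimum between the drugs, where 11.8% of all genes were called. Of the 30 mitosis genes DESeq2 called 0 in that test, as did edgeR, and at an unadjusted p below 0.05 it gave 4 higher and 13 lower with CK666. Of the 37 replication genes 1 was called. Several were lower with CK666 by less than the fold minimum, such as Mcm4 (-0.72, adjusted p 4.57e-21), Mcm6 (-0.60, adjusted p 8.30e-07) and Mki67 (-0.96, adjusted p 3.30e-05), while Mcm5 differed by -0.21 (adjusted p 0.0597). Of the 22 G1 regulators 3 were called lower with CK666 and 0 higher, Ccne2 among them (-1.22), where 6.74% of all genes were called lower. The median difference was -0.05 for replication, -0.21 for mitosis and 0.08 for the 26 actin and contractile genes. Of the actin and contractile genes 1 was higher and 2 were lower with CK666, near the 11.8% of all genes called. These values do not show that the drugs act alike, since a p that misses the threshold leaves smaller differences undetected.

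The response to CK666 was also measured in separate libraries, in cells transfected with the Arp4 siRNA. There, 811 of 14098 genes tested were called (5.75%), 230 higher (1.63%) and 581 lower (4.12%), and edgeR called 466. Of the 714 genes called higher in untransfected cells, 564 of 709 with a value had the same sign in knockdown cells and 90 were called in the same direction, and of the 885 called lower, 755 of 884 had the same sign and 291 were called. The NRF2 and metallothionein list gave 10 called higher and 0 lower in both experiments, with a median of 1.28 in knockdown cells. Sterol genes gave 12 called lower and 0 higher, and mitosis genes 26 called lower and 0 higher. The stress response regulators gave 6 called higher and 1 lower, with a median of 0.58, and the amino acid synthesis genes 2 called higher and 0 lower.

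The difference between the CK666 effects was tested over all 18 libraries and called for 595 of 13511 genes (4.40%), against 384 in edgeR. It was called for 164 of the 714 genes that rose in untransfected cells, of which 160 moved less in knockdown cells, and for 163 of the 885 that fell, of which 146 moved less. Genes were chosen here for a large change in the untransfected cells, which by itself favours a smaller value elsewhere. Cth, which rose by 3.48 in untransfected cells, had a log2 fold change of -0.79 in knockdown cells, and Hspa5 had -0.24 after 1.38. Ccn2 changed by -3.61 in knockdown cells, close to the -3.81 above, and the difference of 0.20 was not called (adjusted p 0.400). Cells given a control siRNA and CK666 were not analysed here, so the knockdown and the transfection cannot be told apart.

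**Figure D5:**
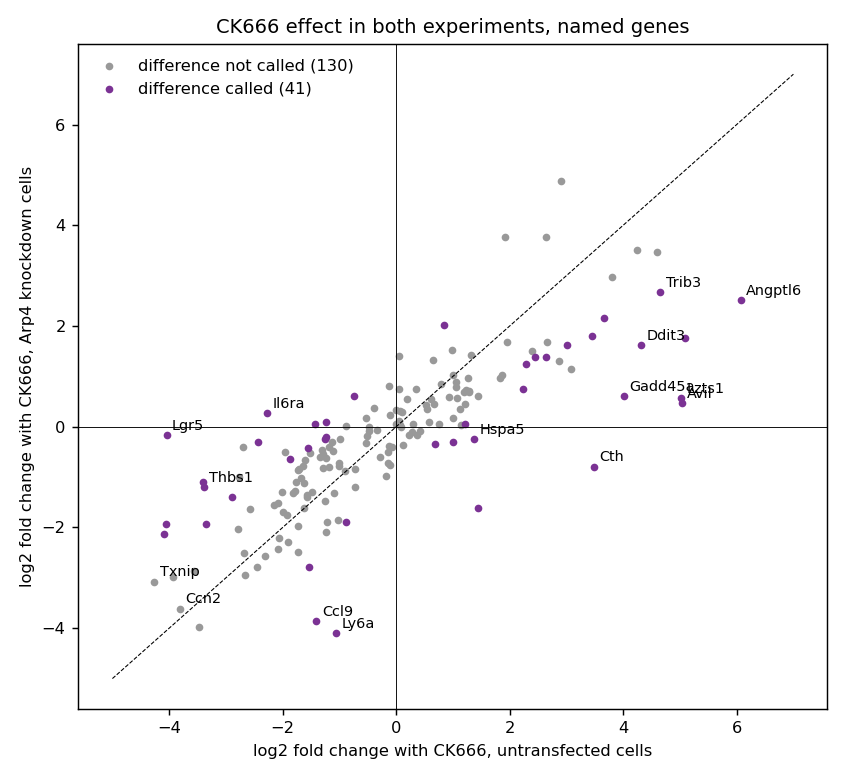
Log2 fold change with CK666 in untransfected cells (horizontal) against that in Arp4 knockdown cells (vertical) for 171 named genes, with the dashed line at equal values. Purple points are the 41 genes for which the difference of the effects was called and gray points the other 130, and Cth, Avil, Lzts1 and Gadd45a lie far below the line.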

How the data were processed

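RNA-seq was performed on 3 control and 3 CK666 libraries of male C57BL/6J marrow MSC. Libraries were unstranded. The authors quantified reads with Salmon 1.2.1 (per the submitters' processing notes, GRCm38) and deposited estimated counts per gene, unscaled. How transcripts were summed to genes is "not given in the sources used here". In all, the table held 54347 genes and 18 libraries, and 0 columns were left unmapped. Symbols and coordinates were taken from GENCODE on GRCm38, and 54094 identifiers matched.

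Counts were rounded, and no library total shifted by more than 0.00137%. DESeq2 1.42.0 in R 4.3.3 (Wald test, Benjamini-Hochberg adjustment, two-sided) was fitted to the 9 libraries of the first experiment. Calls needed an absolute log2 fold change over 1 and an adjusted p below 0.01. Normalized counts were divided by DESeq2 size factors. Adjusted p values of Txnip, Ccn2 and Rspo2 were below what the software writes and are not printed. On simulated counts of 54347 genes for CK666 against control, 49 of 50 genes raised 4-fold were called, 46 of 50 lowered 4-fold, and 0 unchanged genes, while of genes changed 2-fold, which sit at the fold minimum, 20 of 50 raised and 19 of 50 lowered were called. The simulated spread was set from the mean of each gene and was the same in every library. No simulated library stood apart as CK666 replicate 1 did, and genes of low count were not changed. These counts therefore do not give the error rate in the real libraries. Replicates were separate libraries (lowest chi-square per degree of freedom 8.13, highest 107.8 for CK666 replicates 1 and 2).

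Same-numbered control and CK666 libraries deviated together from their group means (correlations 0.312, 0.257 and 0.165). Libraries of unlike number gave -0.279 to 0.138. The main fits held group only and did not pair libraries, so the printed SE and adjusted p values leave any pairing out. A fit with replicate number as a block was run as an alternative. Transcript length was the longest annotated transcript of a gene.

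Genes were named by a rule: the 10 largest rises and 10 largest falls among called genes averaging 100 or more normalized counts over the 6 libraries, separate groups and a descriptive symbol, a fixed set of key genes, and up to 3 called members and the most abundant member of each of 48 gene lists (934 genes). Members, lists, motifs and the rule were chosen with earlier results of these data known. Alternatives were edgeR 4.0.16, TMM size factors, a count filter, other fold rules, the 6 libraries alone, the replicate block and leaving out each library.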

Additional observations from a re-analysis of the deposited data

Results flagged for a closer look

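The test of whether the effect of CK666 differed between untransfected and Arp4 knockdown cells flagged 41 named genes. Values are the log2 fold change in knockdown cells minus that in untransfected cells, from the DESeq2 fit over 18 libraries, all called at an absolute value over 1 and an adjusted p below 0.01. Transfection and knockdown cannot be told apart in it, and Actr2 was also lower in knockdown cells than in siControl.

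Among stress, amino acid and ER genes the difference was negative. It was -4.27 for Cth, -2.70 for Ddit3, -1.99 for Trib3, -1.39 for Chac1, -3.40 for Gadd45a, -1.06 for Gpt2, -1.27 for Slc3a2, -1.17 for Wars and -1.63 for Hspa5. For the antioxidant genes Mt2 and Hmox1 it was -1.51 and -1.04. Other genes that rose in untransfected cells gave -3.56 (Angptl6), -4.55 (Avil), -3.32 (Cdsn), -4.45 (Lzts1), -3.06 (Ndrg1), -1.64 (Mmp11), -1.48 (Mmp13), -1.03 (Myc) and -1.30 (Rpl12). The adipogenic lipase Lpl differed the other way, by 1.17. The level without CK666 was not the same in both experiments. Gadd45a was at 8032, 8207 and 7367 in siArp4 and 3142, 4344 and 4217 in siControl. In untransfected control cells it was at 316.3, 279.5 and 282.5, and the experiments were normalized separately.

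Among genes that fell in untransfected cells, the difference was mostly positive. It was 3.87 for Lgr5, 1.41 for Rspo2 and 2.13 for Sfrp2 of the Wnt group, and 2.54 for Il6ra, 1.94 for Il1rl1, 1.36 for Cxcl12, 2.30 for Angpt1 and 1.33 for Cd14 among signals and receptors. It was 2.18 for Thbs1 and 1.14 for Lox of the matrix, 1.50 for Ccne2 and 1.23 for Mcm4 of the cell cycle, and 1.02 for Coro1c, 2.12 for Mcf2l, 1.0005 for Bnip3 and 1.49 for Elovl6. It was negative, so the fall was larger in knockdown cells, for Ccl9 (-2.46), Ly6a (-3.05), Nuf2 (-1.25) and Acta2 (-1.01).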

How the results depend on the processing

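The counts of genes called with CK666 against control stayed within 1.5 times of 714 and 885 under edgeR (640 and 755), TMM size factors (765 and 849), a count filter (701 and 890) and the 6 libraries alone (661 and 829). Leaving out 1 library gave 635 to 735 higher and 776 to 954 lower. With the replicate block they were 657 and 840. The block ended the calls of Arpc5l (0.98), Rpl12 (0.98), Trp53inp1 (0.995), Psmb9 (1.12) and Hspb1 (-1.29) and changed no other call of a named gene that it gave a value. With no fold minimum the counts were 2230 and 2151, and when the test itself asked for a fold over 2 they were 145 and 204. These 2 rules gave 4779 and 438 genes for CK666 against CytoD (1778), 1054 and 58 for the difference with knockdown (595), and 1395 and 145 for CK666 in knockdown cells (811). edgeR gave 384 for the difference with knockdown and 466 in knockdown cells. Without 1 library these ran from 1590 to 1819, 467 to 759 and 575 to 926. Of 124 named genes that were called, 0 changed sign, and 12 of the 55 not called did in at least 1 alternative, all without a call there. Of 2656 values of 179 named genes 2512 kept their side of the thresholds, 133 lost the call and 11 gained it. The causes were not tested. Few counts limit Ecel1, Fgf21, Bglap, Klf15 and Adamts15.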
